A study of Saccharomyces cerevisiae with 14 samples.

Results

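The comparison described here sets budding yeast lacking FPT1 against wild type, both growing in glucose. It takes in the 7 libraries labelled YEPD, the rich glucose medium, out of 14 in the series: 4 from fpt1 deletion cells and 3 from wild-type cells. The deletion strains carry the genotype MATa his3Δ1 leu2Δ0 ura3Δ0 met15Δ0 fpt1::KanMX, in which a drug-resistance cassette replaces the gene. Deletion replicates 1 to 3 are the strain NKI5633 and replicate 4 is the strain NKI5620. The wild type is BY4741, a laboratory strain with the same mating type and the same 4 auxotrophic alleles, so deletion and wild type share those alleles. The other 7 libraries, from the same strains moved to ethanol for 2 h at 30 °C, enter the fit and are used only to ask whether an effect of the deletion differed between media. Messenger RNA was selected by its poly(A) tail, so the transfer RNAs themselves were not measured. The labels do not say whether replicates were separate cultures, so the p-values here reflect only how far these libraries spread, which may in part be technical.

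Fpt1 is a chromatin protein found at tRNA genes, where it is known as a negative regulator of the assembly of RNA polymerase III, the enzyme that transcribes them. RNA polymerase III needs the assembly factor TFIIIC, which reads the promoter inside the tRNA gene, and TFIIIB, which recruits the enzyme, and it is held back by the repressor Maf1 when nutrients run short. In glucose, yeast ferments: genes for respiration, for other sugars, for storage carbohydrates and for stress protection are kept low, while genes for ribosomes are kept high.

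Expression is given in FPKM, fragments scaled to gene length and to the library's mapped total, as the authors deposited it. Depth is not given; the steps between the lowest values put it roughly at 6200000 to 13000000 reads per glucose library, so a gene near 1 FPKM rests on few reads. The median gene had 50.8 to 54.0 FPKM in deletion libraries and 47.8 to 51.0 FPKM in wild-type libraries. Strain and mating type matched the labels. LEU2, URA3 and MET17 (the gene of the met15 allele), which these strains lack, were listed at 0 in all 7 libraries, and HIS3, of which part is deleted, had 87.3 to 104 FPKM in deletion and 82.2 to 94.8 FPKM in wild-type libraries. STE2, the alpha-factor receptor of MATa cells, had 841 to 882 FPKM in deletion libraries and 924 to 972 FPKM in wild-type libraries, while STE3, the receptor of MATalpha cells, stayed at or under 3.07 FPKM. SAG1, another MATalpha gene, had 23.6 to 27.8 FPKM in deletion and 21.0 to 25.8 FPKM in wild-type libraries. Changes below are differences of log2(FPKM + 1), deletion minus wild type, with their standard error (SE), from limma. This scale understates changes of genes with low values. A gene is said to have risen or fallen if its adjusted p (Benjamini-Hochberg over all 6267 genes tested) was under 0.05.

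The deleted gene was missing where the labels say it should be. FPT1 (YKR011C, chromosome XI, 461635 to 462696 on the minus strand in the RefSeq R64 assembly) was listed at 0, 0.205, 0.153 and 0 FPKM in deletion replicates 1 to 4. It had 52.4, 51.9 and 51.9 FPKM in the wild-type replicates. Each deletion library lay far below every wild-type library, and the estimate was -5.61 ± 0.146 (SE), with a limma adjusted p of 3e-11. None of the 5 genes nearest to it passed the test. FOX2, which encodes a peroxisomal enzyme of fatty acid oxidation, was at 6.64 to 8.67 FPKM in deletion and 7.05 to 8.37 FPKM in wild-type libraries. TOF2, a nucleolar protein gene, was at 24.0 to 30.0 FPKM in deletion and 24.4 to 26.5 FPKM in wild-type libraries. The groups overlapped for both, and also for YKR012C, PRY2 and YPT52, whose estimates were 0.02, -0.12 and 0.08.

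Besides FPT1, 1 gene passed the test. The count of 2 genes, 1 higher and 1 lower, is 0.0319% of the 6267 genes tested (0.016% higher and 0.016% lower). The gene that rose was SRL3 (YKR091W, also called WHI7, chromosome XI, 611525 to 612265 on the plus strand). It encodes a relative of Whi5, the repressor of G1/S transcription, and was found as a dosage suppressor of the lethality of rad53 mutants. SRL3 had 43.8, 46.5, 47.6 and 49.6 FPKM in the deletion libraries, against 30.9, 30.2 and 30.8 FPKM in the wild-type libraries. The lowest deletion library thus lay well above the highest wild-type library, and the means were 46.9 ± 2.42 FPKM in deletion (SD, n = 4) and 30.6 ± 0.372 FPKM in wild-type libraries (SD, n = 3). The change was 0.60 ± 0.089 (limma adjusted p = 0.041), a 1.53-fold ratio of mean FPKM, with a 95% confidence interval of 0.40 to 0.79. Set against wild type by strain, the estimate was 0.57 in NKI5633 (limma adjusted p = 0.11) and 0.68 in the 1 library of NKI5620 (adjusted p = 0.13), so neither strain passed alone. In a bulk culture, more RNA per cell and a larger share of cells at a stage that expresses the gene cannot be told apart. The change stayed between 0.49 and 0.63 under all 18 alternatives, but the adjusted p ranged from 7.8e-04 to 0.29. It missed the threshold in 12 of them, including each of the 7 fits that left out a glucose library and the fit with library medians made equal.

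Below SRL3 came a group of genes with similar changes that did not pass the test. By p, the 12 genes highest in the deletion among those in the RefSeq annotation were SRL3, EMI2, MPF1, TMA10, MTH1, HAP4, SUR1, COA4, YML003W, RGI1, PRP38 and YJR154W. In all 12 every deletion library exceeded every wild-type library, which was so for 977 of the 6267 genes tested (15.6%). The 12 were picked by p on these same values, so this count follows largely from the choice. Their changes ran from 0.34 to 0.88 and their adjusted p from 0.041 to 0.13.

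EMI2 encodes a protein closely related to glucokinase. It had 107, 104, 123 and 119 FPKM in the deletion libraries, against 83.6, 78.6 and 76.1 FPKM in the wild-type libraries. The groups were apart by more than the range within wild type, with an estimate of 0.50 ± 0.083 (limma adjusted p = 0.053). TMA10, a ribosome-associated protein gene induced by stress, had 158, 169, 206 and 186 FPKM in the deletion libraries, against 87.4, 126 and 92.7 FPKM in the wild-type libraries. Wild-type replicate 2 was the highest of its group and came nearest to the deletion values; the estimate was 0.82 ± 0.138 (adjusted p = 0.053), and without that library it was 0.98 with an adjusted p of 0.024. MPF1 had 29.9, 29.9, 33.4 and 30.5 FPKM in the deletion libraries, against 21.7, 20.2 and 21.3 FPKM in the wild-type libraries, an estimate of 0.53 ± 0.089 (adjusted p = 0.053).

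MTH1 encodes a co-repressor that keeps hexose transporter genes off when glucose is scarce. Its deletion values of 16.8, 19.9, 25.5 and 20.2 FPKM all lay above its wild-type values of 10.8, 13.5 and 12.1 FPKM, with an estimate of 0.71 ± 0.127 (adjusted p = 0.073). HAP4, the activating subunit of the CCAAT-binding complex that drives respiratory genes, had 140, 148, 154 and 142 FPKM in the deletion libraries. In the wild-type libraries it had 104, 108 and 98.8 FPKM. The 2 ranges were narrow and apart, and the estimate was 0.49 ± 0.088 (adjusted p = 0.073). RGI1, a gene needed for growth on respired carbon sources, gave the highest estimate of the 12. It had 295, 259, 328 and 302 FPKM in the deletion libraries, against 150, 172 and 158 FPKM in the wild-type libraries (0.88 ± 0.172, adjusted p = 0.11).

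**Figure D1:**
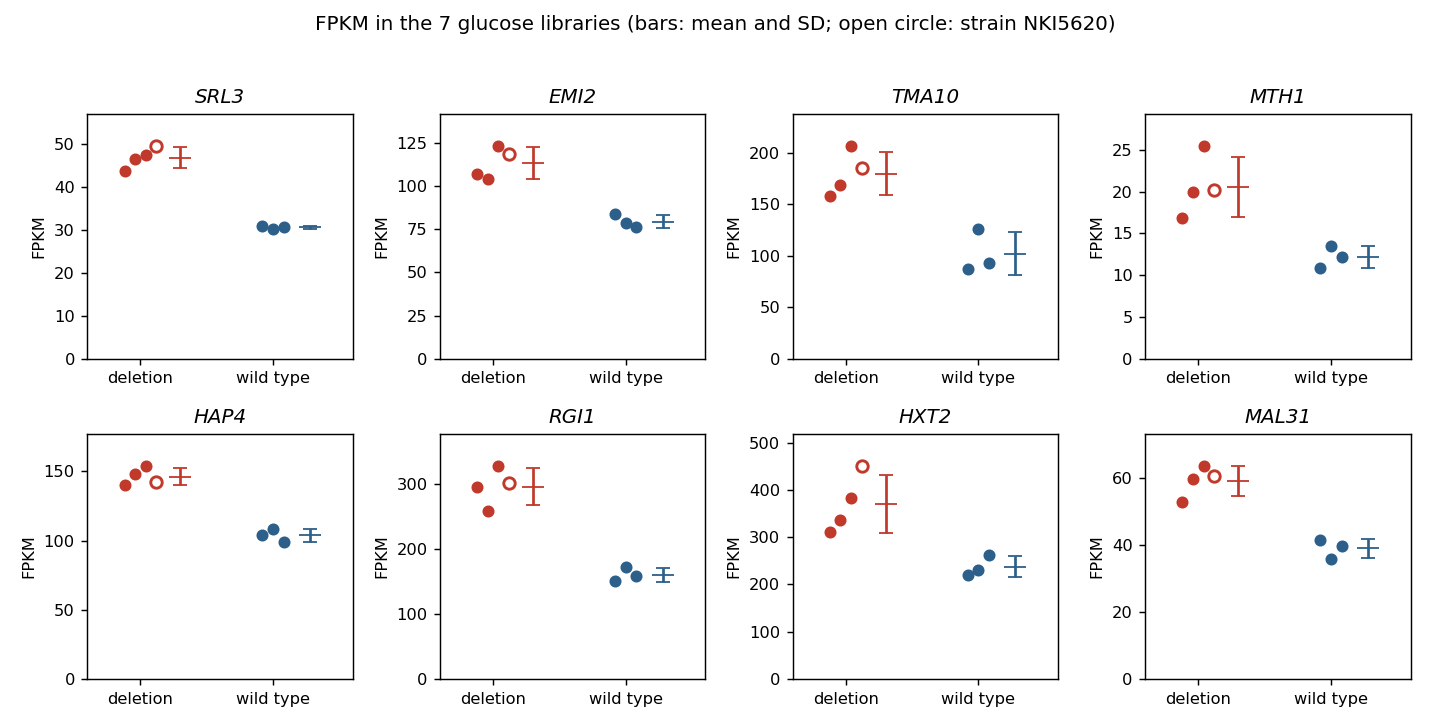
Expression in FPKM (vertical axes, each from 0) of 8 genes in the 4 deletion libraries (left, red) and the 3 wild-type libraries (right, blue) grown in glucose; points are libraries, the open circle is strain NKI5620, and bars give mean and SD. In each panel all deletion points lie above all wild-type points, for SRL3 at 43.8 to 49.6 FPKM in the deletion and 30.2 to 30.9 FPKM in wild type.

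The other members of the 12 serve unlike roles. SUR1 encodes a subunit of the enzyme that adds mannose to sphingolipids (0.34 ± 0.062), COA4 a cytochrome oxidase assembly factor (0.48 ± 0.090) and PRP38 a spliceosome component (0.42 ± 0.085). YML003W (0.42) and YJR154W (0.41) carry no gene name in the files.

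The upstream sequences of these genes were read from the R64 assembly, to which the build name sacCer3 corresponds, as 250 bases from 350 to 101 before the start codon. The stress response element CCCCT, which binds the activators Msn2 and Msn4 in yeast, was searched on both strands. It occurred in 6 of the 12 windows, in none of the 12 for the genes lowest in the deletion, and in 20.3% of 5730 windows of all genes. The 6 are EMI2, MPF1, TMA10, MTH1, SUR1 and RGI1, and RGI1 had 3 matches. CCAAT, the letters of the HAP complex site, was in 3 of the 12 windows (25.0%), in 10 of the 12 of the genes lowest in the deletion (83.3%) and in 37.9% of all. The Rgt1 motif CGGANNA was in 2 of each 12, against 25.8% of all. CNCGAAA, the only G1/S motif searched, was in none of either 12, against 13.8% of all. Other motifs of G1/S genes were not searched, so these counts do not show that such motifs are absent. A match is a description of these letters and not a site. The window of SRL3, the gene that passed the test, is shown first, followed by those of EMI2 (chrIV:1476577-1476826, minus strand), MTH1 (chrIV:1015803-1016052, minus strand) and RGI1 (chrV:291716-291965, plus strand), which hold 1, 1 and 3 matches. The SRL3 window (chrXI:611175-611424, plus strand) holds none. Each is written 5′ to 3′ on the gene's own strand, and capitals mark CCCCT or its reverse complement.
SRL3: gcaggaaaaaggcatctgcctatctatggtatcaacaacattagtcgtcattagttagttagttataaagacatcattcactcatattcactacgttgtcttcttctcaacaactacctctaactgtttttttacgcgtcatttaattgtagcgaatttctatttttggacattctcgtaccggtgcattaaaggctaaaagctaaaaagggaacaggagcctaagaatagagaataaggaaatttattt
EMI2: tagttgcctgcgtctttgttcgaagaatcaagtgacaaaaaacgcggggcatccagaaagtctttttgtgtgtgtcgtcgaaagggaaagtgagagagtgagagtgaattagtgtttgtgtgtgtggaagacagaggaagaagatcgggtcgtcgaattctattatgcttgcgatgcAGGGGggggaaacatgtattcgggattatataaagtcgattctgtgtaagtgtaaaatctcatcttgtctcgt
MTH1: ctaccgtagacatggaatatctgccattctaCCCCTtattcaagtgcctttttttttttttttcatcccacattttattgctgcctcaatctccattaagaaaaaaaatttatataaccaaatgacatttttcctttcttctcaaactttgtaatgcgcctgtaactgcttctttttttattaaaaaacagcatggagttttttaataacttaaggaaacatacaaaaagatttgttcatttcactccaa
RGI1: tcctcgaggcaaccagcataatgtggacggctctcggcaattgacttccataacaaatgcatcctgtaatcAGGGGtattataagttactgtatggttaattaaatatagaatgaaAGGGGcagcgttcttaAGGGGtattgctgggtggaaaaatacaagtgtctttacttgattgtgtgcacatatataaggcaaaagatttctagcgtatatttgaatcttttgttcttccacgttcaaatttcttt

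Genes that take up and phosphorylate sugars had estimates above 0 almost throughout, though no member passed the test. All 4 hexose kinase genes had every deletion library above every wild-type library, which was so for 15.6% of all genes tested. Their median change was 0.50, against 0.08 over all genes tested. Apart from EMI2, already among the 12 genes picked by p, these are HXK1, HXK2 and GLK1. HXK1, the hexokinase kept low in glucose, had 36.1, 34.2, 45.9 and 69.8 FPKM in the deletion libraries, against 21.4, 25.0 and 28.5 FPKM in the wild-type libraries. Replicate 4, strain NKI5620, was much the highest of the 7, and the estimate was 0.82 ± 0.193 (limma adjusted p = 0.21). GLK1, glucokinase, had 102, 109, 118 and 112 FPKM in the deletion libraries and 88.1, 79.1 and 66.4 FPKM in the wild-type libraries (0.50 ± 0.126). HXK2, the main hexokinase in glucose, differed less, at 1797 to 1976 FPKM in deletion and 1524 to 1603 FPKM in wild-type libraries (0.27 ± 0.082).

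Of 17 hexose transporter genes, 11 passed the filter, which ran over both media. All 11 estimates were above 0, which was so for 73.1% of all genes, and their median was 0.25. HXT8, whose estimate is that median, had 0.430 to 1.06 FPKM in deletion and 0.319 to 0.580 FPKM in wild-type libraries. HXT9 and HXT10 also stayed at or under 1.03 FPKM in every glucose library. The count of 11 and the median thus rest partly on values of few reads. HXT2, a high-affinity glucose transporter gene, had 311, 336, 383 and 450 FPKM in the deletion libraries, against 219, 231 and 262 FPKM in the wild-type libraries. The groups did not overlap, and the estimate was 0.63 ± 0.135 (limma adjusted p = 0.15). HXT3 and HXT4 also had every deletion library above every wild-type library (0.36 and 0.55), while HXT1, the low-affinity transporter of high glucose, overlapped at 150 to 183 FPKM in deletion and 132 to 153 FPKM in wild-type libraries. HXT7, at 5.84 to 8.84 FPKM in deletion and 4.82 to 6.68 FPKM in wild-type libraries, overlapped too, and it shares reads with the near-identical HXT6, so its value is uncertain.

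Of 23 genes for glucose sensors and regulators, 6 (26.1%, against 15.6% of all genes tested) had groups apart with the deletion higher. With MTH1 these include SNF3, the high-affinity glucose sensor (12.9 to 14.8 FPKM in deletion and 9.53 to 11.3 FPKM in wild-type libraries, 0.35 ± 0.102), MIG1, the repressor of glucose-repressed genes (0.29), and STD1, the paralogue of MTH1 (0.18). The list's median was 0.09, close to that of all genes, and became 0.00 with library medians made equal.

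Of 17 tested genes for the use of galactose, sucrose and maltose, 10 had groups that did not overlap, all of them higher in the deletion (58.8%, against 15.6% of all genes tested), and the median was 0.29. With library medians made equal the count was 7 of 17, against 358 of all 6267 genes tested. MAL31, the maltose permease, had 53.0, 59.7, 63.6 and 60.6 FPKM in the deletion libraries, against 41.4, 35.8 and 39.8 FPKM in the wild-type libraries. That is a gap wider than the spread within either group, and the estimate was 0.59 ± 0.122 (limma adjusted p = 0.14). MAL11, a second permease (0.44), MAL13, an activator of maltose genes (0.37), and SUC2, invertase (0.35), had groups that were apart in the same direction.

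No gene of respiration, storage carbohydrates or the stress response passed the test, but many had groups that were apart. The share of all genes tested with every deletion library higher was 15.6% as deposited, and that share bears on each deposited count here. With library medians made equal, 358 of all 6267 genes were higher and 498 lower, which bears on the counts under that scaling. In the tricarboxylic acid cycle 10 of 19 genes (52.6%) had every deletion library above every wild-type library, and the median was 0.23; with library medians made equal 6 were higher and 1 lower. Citrate synthase CIT1 had 87.0 to 97.9 FPKM in deletion and 68.8 to 72.6 FPKM in wild-type libraries (0.36 ± 0.128), and SDH1, a succinate dehydrogenase subunit, had 23.6 to 28.7 FPKM in deletion and 18.8 to 20.2 FPKM in wild-type libraries (0.43 ± 0.160). In the respiratory chain the count was 17 of 39 (43.6%), with a median of 0.18, and 5 of 39 with library medians made equal. COX26, a small cytochrome oxidase subunit, had 14.8, 14.6, 16.5 and 18.7 FPKM in the deletion libraries, against 9.31, 3.86 and 8.55 FPKM in the wild-type libraries. Its wild-type replicate 2 stood far below the other two, and the estimate was 1.13 ± 0.262 (limma adjusted p = 0.20). QCR10 and QCR9, subunits of the bc1 complex, gave 0.38 and 0.35. Among 71 mitochondrial ribosomal proteins 20 (28.2%) had all deletion libraries higher (median 0.13), and 3 with library medians made equal; MRPL9 was at 121 to 130 FPKM in deletion and 101 to 109 FPKM in wild-type libraries.

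All 20 genes of glycogen and trehalose metabolism had estimates above 0 (73.1% of all genes tested did), and 12 of the 20 (against 15.6% of all) had groups that did not overlap (median 0.17). With library medians made equal 5 did, all higher. Under that scaling 358 of all 6267 genes were higher and 498 lower, which bears on the scaled counts below too. GSY1, a glycogen synthase, had 10.96, 7.52, 10.4 and 9.88 FPKM in the deletion libraries, against 6.76, 6.47 and 6.0 FPKM in the wild-type libraries (0.52 ± 0.136), and GLG1, which primes glycogen, gave 0.38. Of 39 general stress genes 16 (41.0%) had all deletion libraries higher, 9 with library medians made equal, and the median was 0.24. PNC1, a nicotinamidase induced by stress, had 430, 463, 516 and 511 FPKM in the deletion libraries, against 359, 321 and 337 FPKM in the wild-type libraries (0.50 ± 0.124). DDR2, a stress protein gene, was low in both groups, at 5.80 to 8.51 FPKM in deletion and 2.98 to 4.50 FPKM in wild-type libraries (0.78 ± 0.205). Gluconeogenesis and the use of 2-carbon compounds had 6 of 18 genes apart (33.3%) and a median of 0.20; with library medians made equal 4 were higher and 1 lower. FBP1, the gluconeogenic phosphatase whose gene is shut in glucose, stayed at 2.04 to 3.33 FPKM in deletion and 1.42 to 2.24 FPKM in wild-type libraries, and the groups overlapped. Of 20 glycolysis genes 10 had estimates above 0 (median -0.01), against 73.1% of all genes tested. As deposited 4 of them had all deletion libraries higher and 1 lower, against 15.6% and 2.12% of all genes tested. With library medians made equal 1 was higher and 6 lower.

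**Figure D2:**
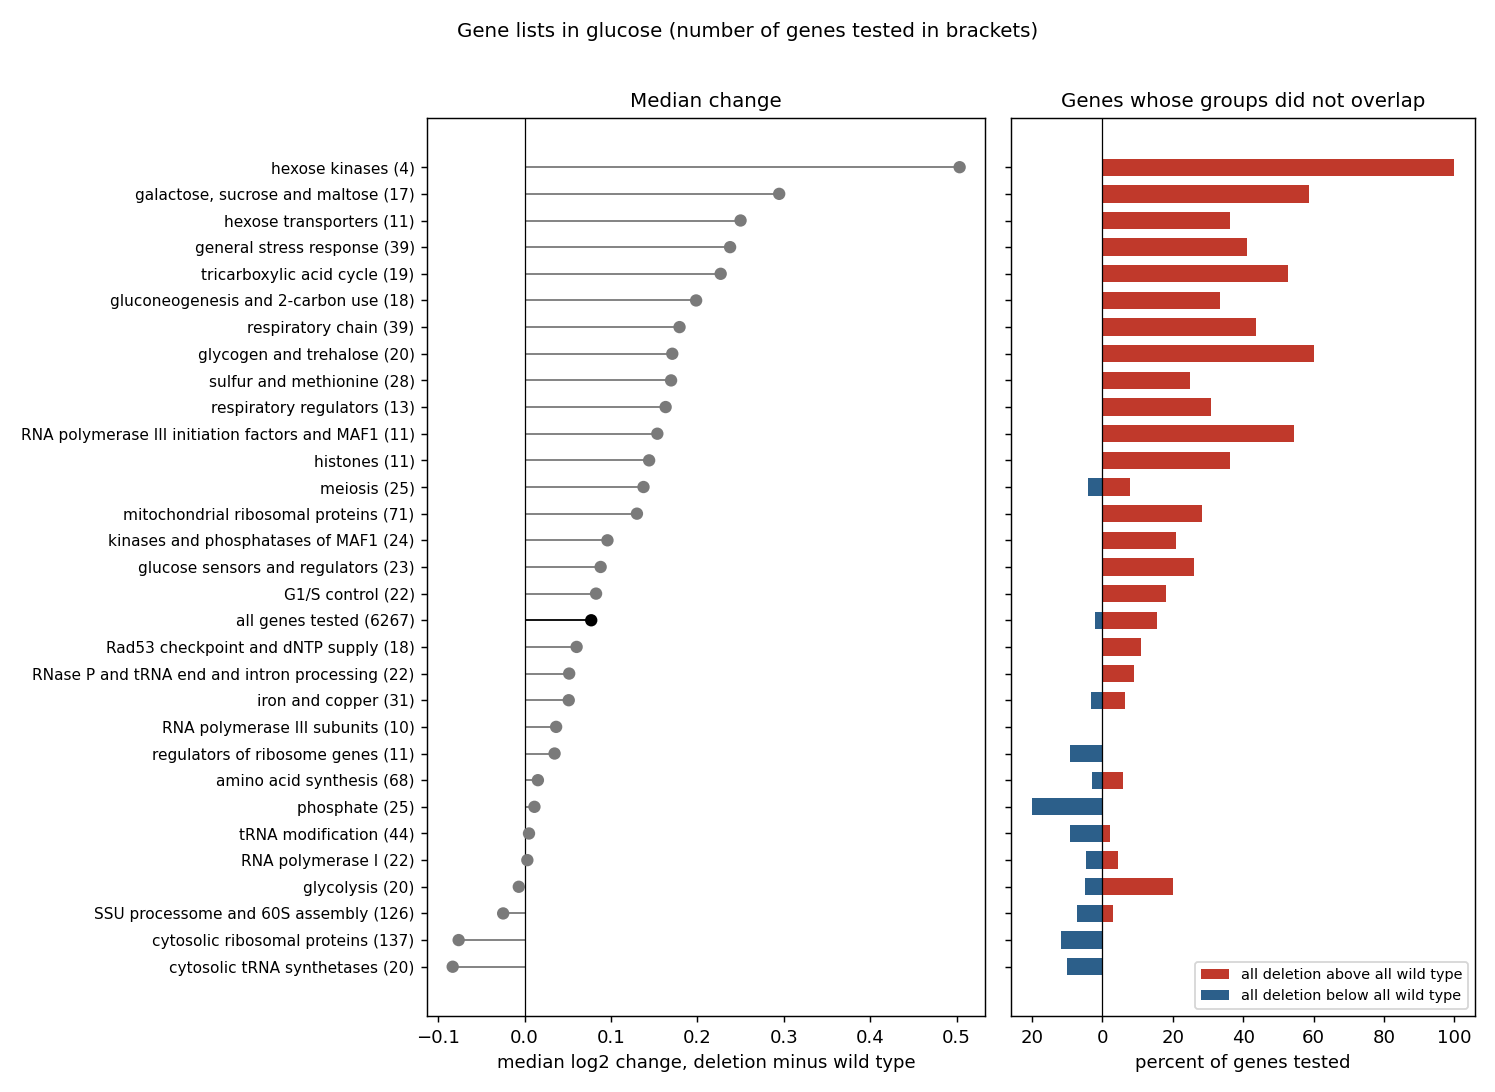
Median log2 change, deletion minus wild type in glucose, of each gene list (left), and the percentage of its genes with all deletion libraries above (red) or below (blue) all wild-type libraries (right); the number of genes tested is in brackets. Hexose kinases stand at 0.50 and all genes tested at 0.08, and cytosolic ribosomal proteins and tRNA synthetases lie below 0.

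The machinery that Fpt1 acts on showed no difference that passed the test. None of the 10 RNA polymerase III subunit genes had groups that did not overlap, and their estimates lay between -0.08 and 0.09. RPO31, the largest subunit, had 110 to 123 FPKM in deletion and 103 to 117 FPKM in wild-type libraries. The 95% intervals of the 10 genes reached from -0.38 to 0.45, so differences larger than those bounds are not within any of them. Of the 11 genes for initiation factors and MAF1, 6 had every deletion library above every wild-type library by a small margin (54.5%, against 15.6% of all genes tested), with a median of 0.15. They were TFC1, TFC4, TFC6 and TFC8, which encode TFIIIC subunits, BDP1, a TFIIIB subunit, and MAF1. TFC4 had 41.2, 42.9, 42.5 and 39.3 FPKM in the deletion libraries, against 37.5, 33.9 and 36.4 FPKM in the wild-type libraries (0.20 ± 0.071, limma adjusted p = 0.37). BDP1 had 75.0, 75.4, 79.0 and 75.0 FPKM in the deletion libraries, against 70.7, 64.1 and 65.8 FPKM in the wild-type libraries (0.19 ± 0.080). MAF1 had 156, 159, 168 and 145 FPKM in the deletion libraries, against 142, 134 and 132 FPKM in the wild-type libraries (0.21 ± 0.122, adjusted p = 0.52). BRF1, the TFIIIB subunit that binds the polymerase, overlapped at 47.4 to 55.9 FPKM in deletion and 47.2 to 51.7 FPKM in wild-type libraries. With library medians made equal, 3 of the 11 were apart and higher, against 358 of all 6267 genes tested, and the list's median was 0.06.

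Of 24 genes for kinases and phosphatases that act on Maf1, 5 had all deletion libraries higher (20.8%, near the 15.6% of all genes tested). With library medians made equal 2 were higher and 1 lower, against 358 and 498 of all 6267 genes. The 5 include TPK2, a catalytic subunit of protein kinase A, at 44.4 to 53.8 FPKM in deletion and 35.7 to 39.3 FPKM in wild-type libraries (0.36 ± 0.134). Genes close to tRNA genes had values near those of all genes. The 245 tested genes within 500 bases of a tRNA gene had a median of 0.05, and 15.1% of them had all deletion libraries higher, against 15.6% of all genes. FPT1 and SRL3 lie 149 kb apart on chromosome XI, SRL3 32465 bases from its nearest tRNA gene. Medians of the 16 chromosomes ran from 0.06 to 0.09. Chromosome XI had a median of 0.08, and 70 of its 313 tested genes had all deletion libraries higher. Over the 16 chromosomes that was so for 942 of 5733 genes, and the difference was not tested.

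Ribosome and tRNA charging genes lay on the other side of the all-gene median, again with no member passing the test. By strain, ribosomal protein genes had a median of -0.11 in NKI5633 and 0.01 in the 1 library of NKI5620. The SSU processome and 60S assembly genes had -0.04 and 0.02, and the tRNA synthetases -0.08 and -0.09. All genes tested had 0.09 and 0.04. Of 137 cytosolic ribosomal protein genes, 16 had all deletion libraries below all wild-type libraries (11.7%, against 2.12% of all genes tested) and none above; 13 estimates were above 0 and the median was -0.08. RPL34B had 3771 to 3997 FPKM in deletion and 4056 to 4741 FPKM in wild-type libraries (-0.18 ± 0.137). Many of these genes exist as near-identical pairs whose reads can be split between copies, so single values are uncertain. All 20 cytosolic tRNA synthetase genes had estimates below 0 (median -0.08). WRS1, which charges tryptophan tRNA, had 335 to 360 FPKM in deletion and 363 to 415 FPKM in wild-type libraries (-0.18 ± 0.097, limma adjusted p = 0.48). The 126 genes of the SSU processome and 60S assembly had 9 below (7.14%) and 4 above (3.17%), with a median of -0.02. With library medians made equal 26 of the 126 were below and none above. NOP56, a core box C/D snoRNP protein gene, was at 714 to 775 FPKM in deletion and 781 to 929 FPKM in wild-type libraries. RNA polymerase I (median 0.00) and 44 tRNA modification genes (median 0.01) had estimates on both sides of 0. Of the 44, 4 were below (9.09%, against 2.12% of all genes tested) and 1 above (2.27%, against 15.6%). With library medians made equal 13 of the 44 were below and none above, against 498 below and 358 above among all 6267 genes.

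Of 22 genes of G1/S control 4, SRL3 among them, had all deletion libraries higher (18.2%, near the 15.6% of all genes tested), and the list's median of 0.08 was that of all genes. WHI5, whose product is related to that of SRL3, had 19.97, 22.2, 21.2 and 20.6 FPKM in the deletion libraries, against 19.3, 18.5 and 13.6 FPKM in the wild-type libraries (0.29 ± 0.122, limma adjusted p = 0.40). SIC1, the inhibitor of S-phase cyclin kinase, had 159 to 173 FPKM in deletion and 133 to 157 FPKM in wild-type libraries (0.21). RAD53, the checkpoint kinase whose loss extra SRL3 suppresses, had 16.1 to 17.2 FPKM in deletion and 13.9 to 15.8 FPKM in wild-type libraries (0.16 ± 0.102). Of the 18 checkpoint and dNTP supply genes it was 1 of 2 with groups that did not overlap (11.1%). In the phosphate list 5 of 25 genes had all deletion libraries lower (against 2.12% of all genes tested) and none higher, among them VTC3, a polyphosphate synthesis gene (515 to 603 FPKM in deletion and 614 to 624 FPKM in wild-type libraries, -0.17), and PHO86 (-0.19); the list's median was 0.01.

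On the lower side, after FPT1, no gene came near the threshold. The 12 genes of lowest p had adjusted p of 0.25 to 0.37, and 9 of the 12 had all deletion libraries below all wild-type libraries (2.12% of all genes tested). These 12 too were picked by p on the same values, so that count follows largely from the choice. PFA4, a protein palmitoyltransferase gene, had 30.3, 26.9, 27.9 and 30.0 FPKM in the deletion libraries, against 32.8, 35.4 and 37.2 FPKM in the wild-type libraries (-0.28 ± 0.076). SPE3, spermidine synthase, had 359, 356, 355 and 350 FPKM in the deletion libraries, against 378, 393 and 416 FPKM in the wild-type libraries (-0.16 ± 0.048). SPC1, a signal peptidase subunit, had 249, 271, 244 and 240 FPKM in the deletion libraries, against 332, 351 and 292 FPKM in the wild-type libraries (-0.37 ± 0.123). The groups were apart for all 3 of these genes. TGL2 (-0.29), SGT2, which helps insert tail-anchored proteins (-0.14), and TRM7, a tRNA ribose methyltransferase gene (-0.19), lay in the same direction. EDC1, an activator of mRNA decapping, gave -0.29 with groups that overlapped. DGR1, YOL160W, YEL009C-A, YCL042W and YGR025W were low genes, at no more than 7.0 FPKM in any deletion library. In the wild-type libraries YCL042W had 15.6, 7.11 and 13.1 FPKM, with groups apart. The highest wild-type value among the others was 6.67 FPKM, for YOL160W.

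Estimates leaned upward across the table, and the size of that lean bears on every count above. Of 6267 genes 4584 had estimates above 0 and the median was 0.08. At an unadjusted p under 0.05 there were 682 genes higher (10.9% of all) and 41 lower (0.654%), so 94.3% of those past it were higher. With library medians made equal there were 229 higher and 208 lower (52.4% higher), and with quantile normalization 228 and 186 (55.1%). Groups that did not overlap numbered 977 higher and 133 lower as deposited, and 358 higher and 498 lower with medians made equal. The sugar, tricarboxylic acid cycle, respiratory chain, glycogen and stress lists kept medians above 0 under both scalings. With library medians made equal fewer of their genes were apart, as given above. The same held for all genes tested, at 358 higher of 6267 against 977 as deposited, and that share bears on those counts. Hexose kinases stayed at 4 of 4 and hexose transporters had 1 of 11 apart, against 4 as deposited. The medians of 12 of the 29 lists with medians above 0 as deposited (34 lists in all) went below 0 with that scaling. Ribosomal protein genes then had 27 of 137 below and none above, against 498 of all 6267 genes below. As deposited 16 of the 137 were below, against 133 of all 6267.

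**Figure D3:**
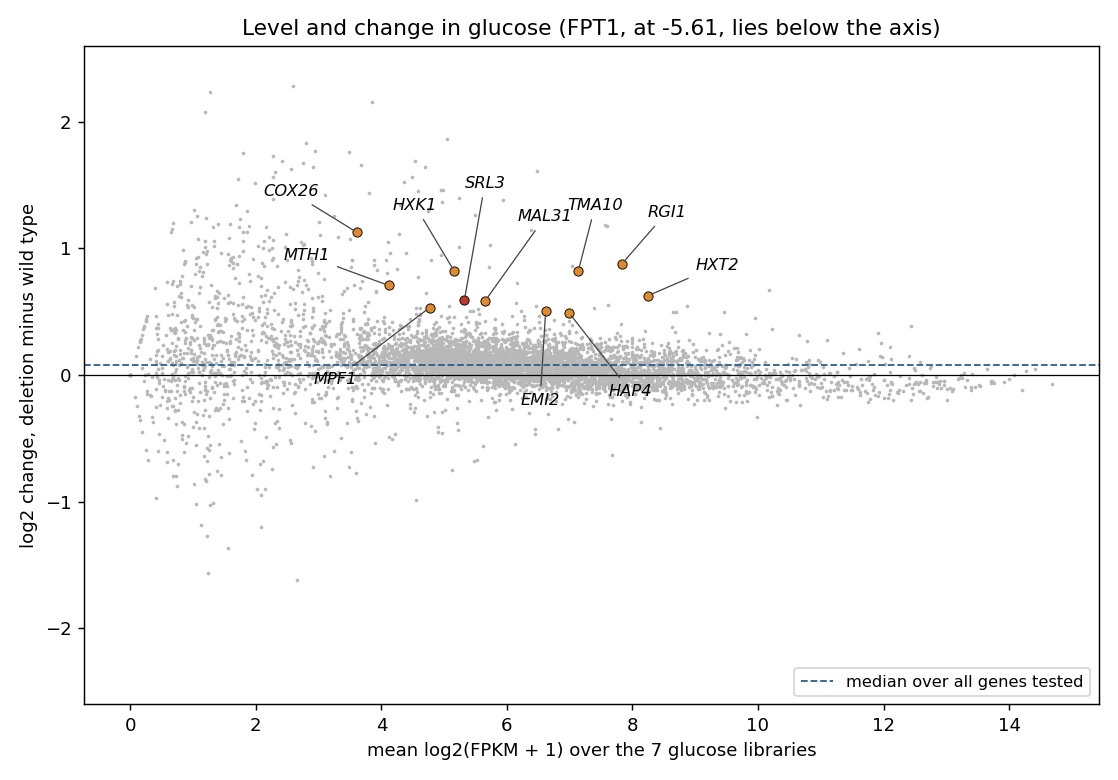
Log2 change, deletion minus wild type in glucose, of each gene tested (vertical axis) against its mean log2(FPKM + 1) over the 7 glucose libraries (horizontal axis); SRL3 is red and 10 other genes of the text are orange. The cloud lies slightly above 0, around the dashed median of 0.08, and comes down to 0 at the highest levels.

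The lean depended on level. Genes were ranked by mean level and split into 4 equal classes. The lowest class had a median change of 0.12 and the highest 0.01. By library, replicates 1 to 3 had 0.11, 0.16 and 0.16 in the lowest class and -0.00, -0.03 and 0.01 in the highest. Replicate 4, strain NKI5620, changed little with level, at 0.06 in the lowest class and 0.04 in the highest. Ribosomal genes fall in the highest range, and the part of level in the list medians was not tested. Deletion libraries also differed by coding length: replicate 2 had a median difference from wild type of -0.01 in the shortest of 4 length classes and 0.14 in the longest, while replicate 4 had 0.14 in the shortest and 0.01 in the longest. RGI1, TMA10 and COX26 are short genes, and the part of gene length in their values was not tested.

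**Figure D4:**
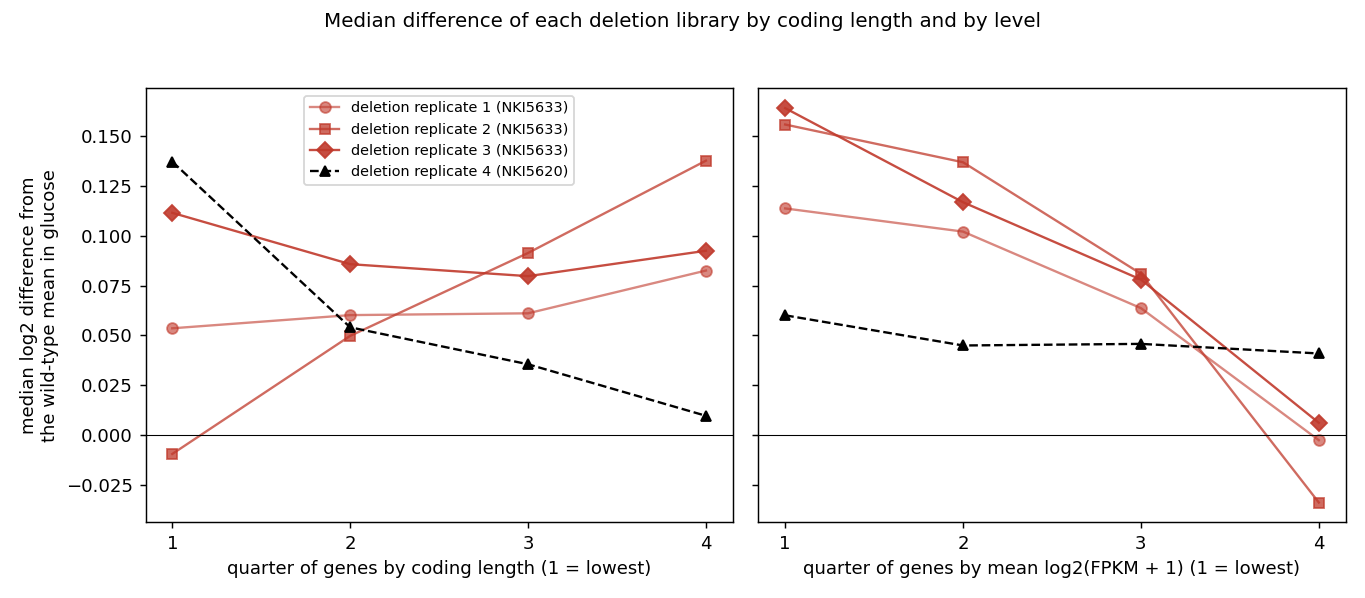
Median log2 difference of each deletion library from the wild-type mean in glucose (vertical axis), over 4 equal classes of genes by coding length (left) and by mean level (right). Replicates 2 and 4 slope in opposite directions with length, and replicates 1 to 3 approach or cross 0 in the highest class by level.

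Between the 2 deletion strains, NKI5620 and NKI5633, limma called 0 of 6267 genes (lowest adjusted p 0.14), with 367 genes at an unadjusted p under 0.05 and 17 called with sample weights. NKI5620 is 1 library in glucose, assumed to vary like the rest. Set against wild type, that library alone called 7 genes: FPT1, HTL1, HXK1, PRP38, SUR1, YDL016C and YMR173W-A. HTL1, a subunit gene of the RSC chromatin remodeller, had 1253 FPKM in it, 625 to 792 FPKM in the other deletion libraries and 544 to 643 FPKM in wild-type libraries. YDL016C had 31.4 FPKM in it, 67.7 to 75.6 FPKM in the other deletion libraries and 73.9 to 96 FPKM in wild-type libraries. HTL1, YDL016C and YMR173W-A were named after their values were seen.

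In ethanol the 12 genes highest in glucose had changes between -0.39 and 0.15. SRL3 gave -0.12 there (mean 78.2 FPKM in deletion and 85.2 FPKM in wild-type libraries), TMA10 -0.39, RGI1 -0.38, EMI2 0.01, MTH1 0.11 and HXT2 0.17. Of the 12 genes 4 had estimates above 0 in ethanol. The median of the stress list was 0.24 in glucose and -0.37 in ethanol. That of glycogen and trehalose was 0.17 in glucose and -0.31 in ethanol, and that of ribosomal proteins was -0.08 in glucose and 0.37 in ethanol. The difference between media was itself tested: no gene passed by limma, with 1603 genes at an unadjusted p under 0.05 and 1036 called with sample weights. The lowest limma adjusted p was 0.079, for the deleted gene FPT1 itself, and TMA10 had 0.088. For SRL3 the difference was 0.71 ± 0.126 (adjusted p = 0.13), so it cannot be called particular to glucose.

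**Figure D5:**
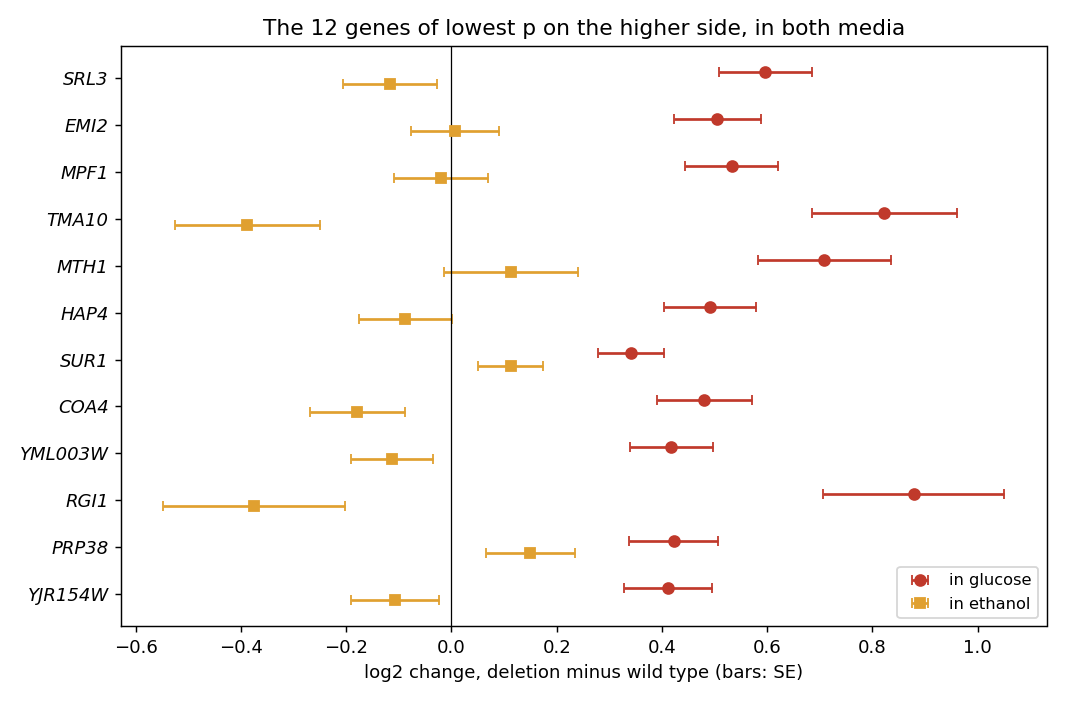
Log2 change, deletion minus wild type, with SE, of the 12 genes of lowest p on the higher side, in glucose (red circles) and in ethanol (yellow squares). In glucose all 12 lie between 0.34 and 0.88 and in ethanol between -0.39 and 0.15; the genes were chosen on the glucose values.

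In precision, the 95% interval of the change lay within 1 log2 unit of 0 for 5636 of the 6267 genes (89.9%) and within 0.5 for 4726 (75.4%). A fit to the 7 glucose libraries alone called 12 genes, 11 of them higher: SRL3, EMI2, MPF1, HAP4, RGI1, MAL31, GPD1, YKR075C, MSC1, MDG1 and CMK2. GPD1, glycerol phosphate dehydrogenase, had 204, 180, 203 and 196 FPKM in the deletion libraries, against 136, 132 and 139 FPKM in the wild-type libraries. The last 5 of these were named after their values were seen. Weighting libraries by their agreement with their groups called 603 genes, 576 of them higher and 27 lower, with weights from 0.393 to 3.37.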

How the data were processed

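The authors' deposited table gives FPKM values, 1 column for each sample. STAR 2.7.1a and sacCer3 are named in the submitters' processing notes; the program behind FPKM, the annotation, any use of strand and any filter were not given in the sources used here. Libraries were stranded poly(A), read as 65-base single reads, per the labels' protocols. Of the table's 6664 genes 5989 matched RefSeq R64 by systematic name. The 6267 genes that reached 1 FPKM in 3 or more of the 14 samples were tested. A model with 1 mean for each group, over all samples, was fitted to log2(FPKM + 1) with limma 3.58.1 in R 4.3.3 (trended empirical Bayes, two-sided) and checked on simulated data. Strains were compared in a model with a mean for each strain in each medium. Depth was estimated from low values in coding regions of at least 900 bases, where 61.9% to 87.5% of steps fell within 0.15 of a whole read, so counts were not recovered. Genes were named by rule: FPT1 and its neighbours, strain markers, MAF1, BRF1 and RPO31, called genes, the 12 RefSeq genes of lowest p on each side, and list members of lowest p. Members, lists and rules were chosen with earlier results of these data known, so lists were given counts and medians and no test. The 18 alternatives covered the pseudocount, the filter, scaling, the samples and genes in the fit, the estimation, the replicate number and each glucose library left out.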

Additional observations from a re-analysis of the deposited data

Results flagged for a closer look

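In 5 of the 101 genes looked at, 1 of the 4 deletion libraries stood apart from the other 3 by more than Dixon's 95% critical value for 4 samples; chance flags about 1 in 20 groups. SUR1 had 74.2 FPKM in replicate 4 (NKI5620) and 62.4 to 64.3 FPKM in the other deletion libraries. MAL13 had 13.6 FPKM in replicate 3, against 12.9 to 13 FPKM in the others. BDP1 had 79.0 FPKM in replicate 3, against 75.0 to 75.4 FPKM, and MSC1 had 60.9 FPKM in replicate 3, against 54.1 to 55.3 FPKM. NDE1, an external NADH dehydrogenase gene of the respiratory chain, had 232 FPKM in replicate 1, against 263 to 269 FPKM. In all 5 genes the 4 deletion libraries, the outlying one included, lay above all 3 wild-type libraries.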

How the results depend on the processing

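FPT1 passed under all 18 alternatives, at -8.29 with a pseudocount of 0.1 and -3.49 with 5. The 2 genes called became 1 with a pseudocount of 5, with no filter, with library medians made equal and with the replicate block, 5 with a filter of 5 FPKM or with RefSeq genes alone, 12 in the glucose libraries alone and 603 with sample weights. Leaving out 1 glucose library gave 1 to 2, with 329 to 790 genes higher at an unadjusted p under 0.05; the 329 came without wild-type replicate 2. SRL3 missed the threshold at 0.54 with a pseudocount of 5, 0.60 with no filter, 0.51 with medians made equal, 0.49 with quantile normalization, 0.58 with the replicate block, and 0.57 to 0.63 when 1 library was left out. Same-numbered libraries did not deviate together (r = -0.0648, -0.258 and 0.00826 over genes), so the numbers were not taken to pair them. NKI5620 against NKI5633 called 0 genes, but 2 in glucose libraries alone, 17 with sample weights and 1 without deletion replicate 1. The difference between media called 0 genes, but 1 with a pseudocount of 5, no filter, RefSeq genes alone or without wild-type replicate 2, and 1036 with sample weights. Estimates near 0 reversed with medians made equal for FOX2 (-0.024), YKR012C (-0.073), YPT52 (-0.0056), BRF1 (-0.020) and RPO31 (-0.0001), and with quantile normalization for FOX2 (-0.17), TOF2 (-0.0028), YKR012C (-0.12) and BRF1 (-0.030). YKR012C ran from -0.19 to 0.18 when 1 library was left out. The causes were not tested.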

Other observations

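In sulfur and methionine metabolism 7 of 28 genes had every deletion library above every wild-type library (25.0%, against 15.6% of all genes tested). The list's median change was 0.17. With library medians made equal 3 were higher and 1 lower, against 358 and 498 of all 6267 genes. Of 11 histone genes 4 were apart in the same direction (36.4%, median 0.14), and 1 with library medians made equal. The iron and copper list had 2 higher of 31 (6.45%) and 1 lower (3.23%), and amino acid synthesis 4 higher of 68 (5.88%) and 2 lower (2.94%); 2.12% of all genes tested were lower. Of 25 meiosis genes tested 2 were apart and higher (8.0%) and 1 lower (4.0%), and among 7 MATa marker genes 6 had estimates below 0 (median -0.14).

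Of the reading frames with no entry in the RefSeq annotation, 2 were listed at 0 in all 3 wild-type libraries and above 1 FPKM in all 4 deletion libraries. YPL102C had 3.37, 4.98, 2.49 and 2.50 FPKM in the deletion libraries, and YPR016W-A had 2.76, 8.14, 2.01 and 3.75 FPKM (limma adjusted p = 0.15 for both). No gene showed the reverse pattern. These values rest on few reads.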
